A study of Mus musculus with 24 samples.

Results

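Expression of 9 genes from 2 stretches of the mouse genome was described in brain tissue of mice that froze little or much after contextual fear conditioning. Each stretch also holds other genes. Cct2, Cand1, Lemd3, Ppm1h and Usp15 lie in that order on chromosome 10, and Cuedc1, Msi2, Utp18 and Mbtd1 lie in that order on chromosome 11. The genes were chosen because their arrays differed between low and high freezing mice in both brain regions studied, so their freezing differences are given below as a description, with no test. Members were all probe sets annotated with exactly 1 gene symbol among the 9, a probe set being a group of short oligonucleotides on the array that together report 1 transcript or part of one. This gave 35 of 45101 probe sets, 18 on chromosome 10 and 17 on chromosome 11. Of these, 31 passed the filter on dim probe sets, 16 and 15 in the 2 runs, and the 4 that did not belonged to Lemd3, Usp15, Utp18 and Mbtd1.

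The mice descended from a cross of A/J with C57BL/6J, both inbred, and were selected for contextual fear conditioning. In that task an animal shocked in a chamber later stops moving when put back there, which is scored as freezing. The 24 arrays formed 4 groups of 6: hippocampus low freezing, hippocampus high freezing, amygdala low freezing and amygdala high freezing. All groups share the cross, and total RNA was measured in each. Ages, sexes, the generation of selection and the time from training to dissection are not given in the sources used here, nor is it stated whether an array holds RNA of 1 mouse or of several. Replicate numbers 1 to 6 were low freezing and 7 to 12 high freezing in each region.

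Array medians lay between 36.7 and 43.4 intensity units, with group means of 37.7 ± 0.749 in hippocampus low freezing, 39.8 ± 1.65 in hippocampus high freezing, 40.9 ± 1.38 in amygdala low freezing and 42.6 ± 0.781 in amygdala high freezing (SD, n = 6 each). Marker genes separated the tissues by label. Of the measured markers, 8 of 9 for dentate gyrus granule cells and 8 of 9 for CA field pyramidal cells were lower in the amygdala, while 8 of 8 for central amygdala and striatum were higher (limma, Benjamini-Hochberg adjusted p under 0.05). Of 7 markers of basolateral amygdala and claustrum, 3 were higher and 4 lower in the amygdala, and their summed intensity was lower there (1189.7 to 2201) than in the hippocampus (2633 to 3039.8), opposite to the name of the list. In either freezing comparison, 0 markers of any of the 10 lists passed that threshold. Of all probe sets 0.0518% in the hippocampus and 0.0555% in the amygdala did, so nothing is read from that 0. For every list the range of summed marker intensity in low freezing arrays overlapped that in high freezing arrays in both regions. Gfap, an astrocyte marker, had log2 differences of -0.84 and -0.90 between high and low freezing (limma adjusted p = 0.121 and 0.0851). Those of the other astrocyte markers lay between -0.20 and 0.19 in the hippocampus and between -0.20 and 0.06 in the amygdala. The part of cell types in the freezing differences of the 9 genes was not tested.

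The 9 genes do different jobs in the cell. On chromosome 10, Cct2 encodes a subunit of the CCT chaperonin, the barrel that folds actin and tubulin. Cand1 exchanges the substrate receptors of cullin-RING ubiquitin ligases, and Usp15 removes ubiquitin from proteins that include components of TGF-beta signalling. Lemd3 is an inner nuclear membrane protein that binds SMAD proteins, and Ppm1h is a protein phosphatase of the PPM family. On chromosome 11, Msi2 is an RNA-binding protein of the Musashi family, Utp18 works in the small subunit processome that prepares ribosomal RNA, Mbtd1 reads methylated histones within the NuA4/TIP60 acetyltransferase complex, and Cuedc1 carries a CUE domain, a fold that binds ubiquitin.

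Utp18 and Mbtd1 start head to head, and the stretch between their start sites is shown because the pair share it while their freezing differences ran in opposite directions. RefSeq places the start of Utp18 at 93885766 on the minus strand of chromosome 11 and that of Mbtd1 at 93885850 on the plus strand (GRCm38.p6). A second Mbtd1 window, used below, belongs to a start site farther inside the gene. The interval chr11:93885767-93885849 lies upstream of both genes and holds 83 bases, 75.9% of them G or C, with 14 CpG dinucleotides. It reads, 5′ to 3′ on the plus strand, with matches to searched motifs in capitals:
Utp18 to Mbtd1 interval: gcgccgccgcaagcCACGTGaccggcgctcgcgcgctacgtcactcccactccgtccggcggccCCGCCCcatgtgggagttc

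The first stretch in capitals is the E-box CACGTG and the second is a GC box, GGGCGG read on the minus strand. Motifs were searched as exact letters on both strands in RefSeq promoter windows of 300 bases, from 250 before to 50 after each start site. All 9 genes matched that table, with 14 windows. CACGTG was in 5 of the 14 windows, those of Utp18, Mbtd1 and Msi2, and in 7.15% of all 32851 windows. GGGCGG was in 11 of the 14, from 8 of the 9 genes, the exception being Ppm1h, and in 35.7% of all windows. CCAAT was in 7 windows, of Cuedc1, Lemd3, Mbtd1, Msi2 and Utp18, against 37.4% of all windows. CCGGAAG was in 4 windows, of Cct2, Lemd3, Mbtd1 and Utp18, against 8.86%. TGACGTCA was in 3 windows, of Msi2 alone, against 1.79%. TATAAA was in 0 windows of the 9 genes and in 13.6% of all windows. The window of Utp18 and that of the Mbtd1 start given above overlap by 183 bases. The second Mbtd1 window also overlaps that of Utp18, and those of Msi2 overlap each other. Matches in these windows are therefore partly the same letters. Between 42.0% and 76.3% of the bases in a member window were G or C, and the median of all windows was 52.7%. Nothing is therefore read from the motif counts. Such matches are a description of sequence, and binding was not measured.

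**Figure D1:**
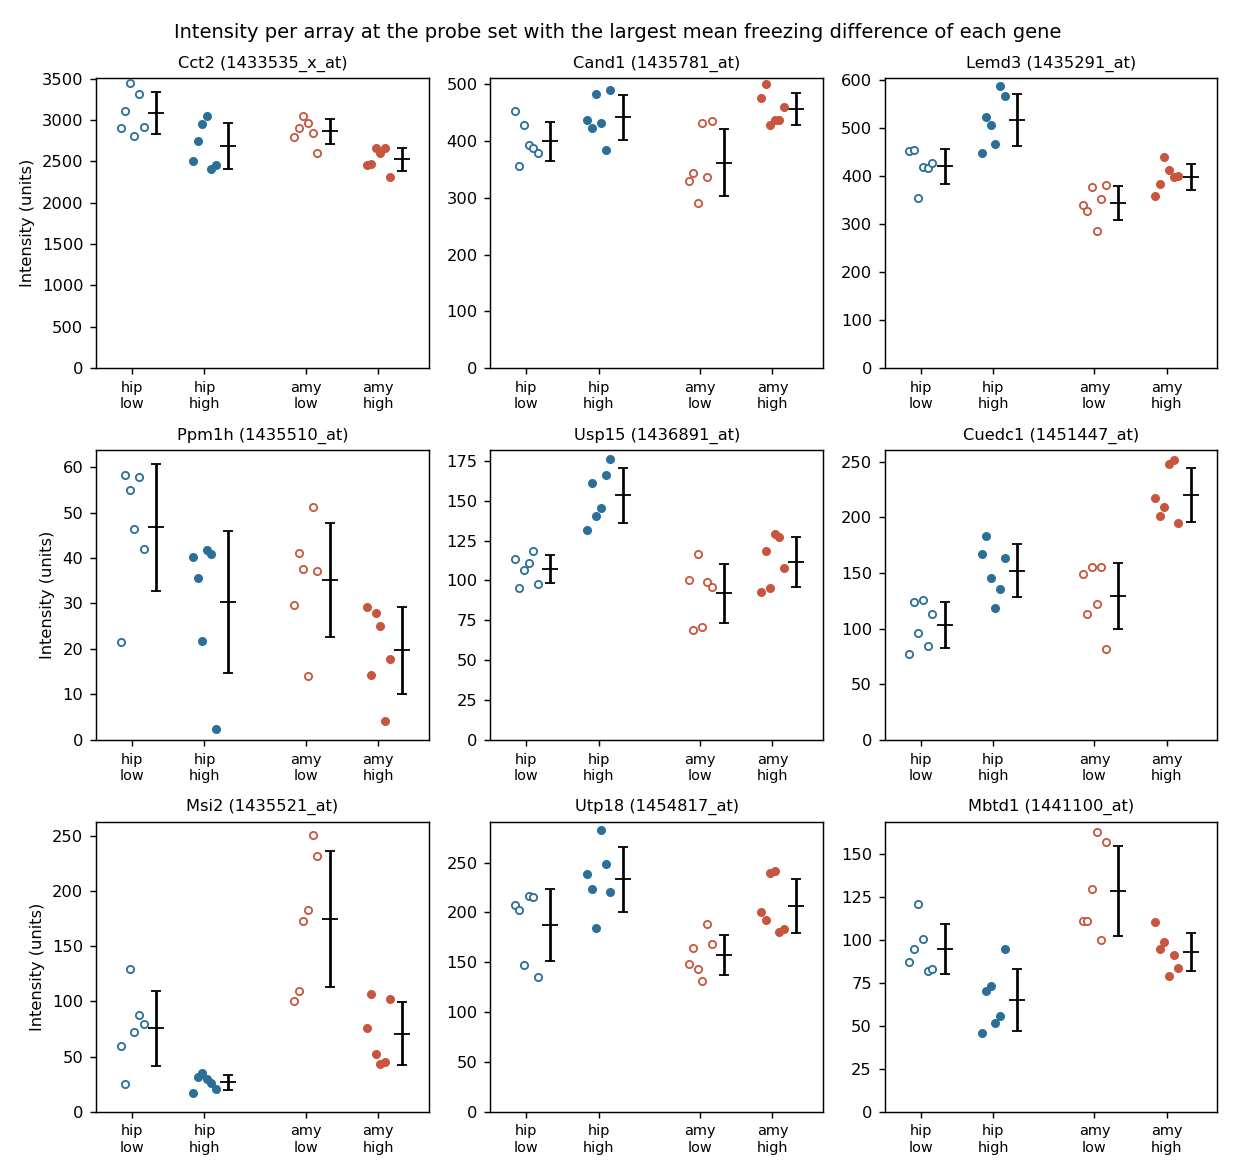
Intensity (y axis, from 0) of the 9 genes on each of the 24 arrays, by region (hip, hippocampus; amy, amygdala) and freezing group (x axis), at the probe set of each gene with the largest freezing difference averaged over both regions; points are arrays, open for low and filled for high freezing, and bars beside them give mean ± SD of 6 arrays. All amygdala high freezing points lie above the low freezing points for Cuedc1, as do all hippocampus high freezing points for Usp15, while the other pairs of groups overlap.

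The values follow by gene, first those that were higher in high freezing mice. Cuedc1, the CUE domain gene, had the widest separation in the amygdala. Its probe set 1451447_at, the brightest and most different of 3, read 76.9 to 125 (median 104.7) in hippocampus low freezing and 119 to 183 (median 154) in hippocampus high freezing. In the amygdala it read 81.4 to 155 (median 136) at low freezing and 195 to 251 (median 213) at high freezing. In the hippocampus 5 of 6 high freezing arrays exceeded every low freezing array, and in the amygdala all 6 did, so the groups there did not overlap. High minus low freezing was 0.50 in the hippocampus and 0.72 in the amygdala on the log2(intensity + 16) scale, or 1.42-fold and 1.65-fold. The other probe sets of Cuedc1 differed less: 1435358_at by 0.16 and 0.17, and 1425920_at by 0.13 in the hippocampus and -0.15 in the amygdala.

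Usp15, the deubiquitinase, separated the hippocampus groups at 1436891_at, its probe set with the largest difference. Intensities were 95.4 to 118 (median 109) at low freezing and 131 to 176 (median 153) at high freezing in the hippocampus, with no overlap. They were 68.7 to 117 (median 97.4) and 92.5 to 129 (median 113) in the amygdala, where 3 of 6 high freezing arrays exceeded every low freezing array. The differences were 0.46 and 0.25 on the log2 scale, or 1.37-fold and 1.19-fold. The brightest probe set of the gene, 1454036_a_at, differed by 0.02 in the hippocampus and -0.01 in the amygdala. Among the remaining 3 that passed the filter, 1455842_x_at differed by 0.31 and -0.03, 1447881_x_at by 0.16 and 0.07, and 1442307_at by -0.11 and 0.02.

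Lemd3, the inner nuclear membrane protein, gave 354 to 453 (median 423) at low freezing and 447 to 588 (median 515) at high freezing in the hippocampus at 1435291_at. In the amygdala the same probe set gave 285 to 381 (median 346) and 359 to 440 (median 399; highest array 439.5). In each region 5 of 6 high freezing arrays lay above all low freezing arrays. The log2 differences were 0.29 and 0.21, or 1.22-fold and 1.16-fold. A further probe set, 1439587_at, was higher by 0.27 in the hippocampus and differed by -0.07 in the amygdala.

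Cand1, the cullin exchange factor, had larger differences in the amygdala than in the hippocampus. Its brightest and most different probe set, 1435781_at, read 356 to 452 (median 390.3) and 385 to 491 (median 435) at low and high freezing in the hippocampus. In the amygdala the readings were 291 to 435 (median 341) and 429 to 499.8 (median 449), and 5 of 6 high freezing arrays lay above all low freezing arrays. The log2 differences were 0.14 and 0.34. At 1428649_at they were 0.03 and 0.35, at 1455751_at 0.05 and 0.32, and at 1428648_at -0.04 and -0.03, so 3 of the 4 probe sets of Cand1 gave 0.32 or more in the amygdala. Whether the regions differ in these freezing differences was not tested.

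Utp18, the ribosomal RNA processing factor, had 1 probe set past the filter, 1454817_at. Intensities were 136 to 216 (median 205) at low freezing and 185 to 283 (median 231) at high freezing in the hippocampus. In the amygdala they were 131 to 189 (median 156) and 181 to 242 (median 197). The high freezing arrays above all low freezing arrays numbered 5 of 6 and 4 of 6. The differences were 0.30 and 0.36 on the log2 scale, or 1.23-fold and 1.28-fold.

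Mbtd1, which shares the upstream interval printed above with Utp18, was lower in high freezing mice. At 1441100_at, its most different probe set, the hippocampus gave 82.2 to 121 (median 91.0) at low freezing and 46.0 to 95.0 (median 63.1) at high freezing. The amygdala gave 100.1 to 163 (median 120.4) and 78.9 to 110.4 (median 93.1). In each region 5 of 6 high freezing arrays lay below all low freezing arrays, and the log2 differences were -0.46 and -0.40. The brightest probe set, 1448641_at, gave 270.4 to 335 and 237 to 294 in the hippocampus, and 266 to 356 and 246 to 314 in the amygdala, with smaller log2 differences of -0.19 and -0.17. At 1417261_at the differences were -0.20 and -0.05.

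Ppm1h, the phosphatase, was lower at high freezing at both of its probe sets. The brightest, 1455737_at, read 479.7 to 727 (median 550.0) at low freezing and 359.9 to 595 (median 469) at high freezing in the hippocampus. In the amygdala it read 372 to 545 (median 456) and 289.7 to 403 (median 337). High freezing arrays below all low freezing arrays numbered 3 of 6 and 4 of 6. The log2 differences were -0.28 and -0.41. The dim probe set 1435510_at, with a mean of 33 over all arrays, had log2 differences of -0.50 and -0.53. Its arrays ranged from 21.6 to 58.3 and from 2.39 to 41.7 at low and high freezing in the hippocampus, and from 14.0 to 51.2 and from 4.09 to 29.2 in the amygdala, so the groups overlapped in each region. Without hippocampus high freezing replicate 12, the array at 2.39, the hippocampus difference was -0.25. With an offset of 1 the differences were -0.90 and -0.91, and with an offset of 64 both were -0.24.

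Cct2, the chaperonin subunit, had the smallest difference averaged over both regions among the genes at their most different probe sets. At 1433535_x_at, the brightest of 3, intensities were 2809 to 3447 (median 3008) at low freezing and 2407 to 3053 (median 2627) at high freezing in the hippocampus. In the amygdala they were 2608 to 3048 (median 2879.5) and 2310.2 to 2660 (median 2539). In each region 4 of 6 high freezing arrays lay below all low freezing arrays. The log2 differences were -0.20 and -0.18, or 1.15-fold and 1.13-fold lower. The other probe sets gave -0.16 and -0.07 at 1416037_a_at, and 0.17 and -0.08 at 1433534_a_at.

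Msi2, the Musashi RNA-binding protein, had the largest freezing differences of the 9 genes, at 1 of its 8 probe sets. At 1435521_at the hippocampus gave 25 to 129 (median 75.9) at low freezing and 17.1 to 35.5 (median 27.8) at high freezing. The amygdala gave 100.1 to 251 (median 178) and 43.1 to 107 (median 64.2). High freezing arrays below all low freezing arrays numbered 2 of 6 in the hippocampus and 4 of 6 in the amygdala. The log2 differences were -1.02 and -1.13, or 2.02-fold and 2.19-fold lower. These sizes depend on the offset added before taking logs: they were -1.35 and -1.31 with an offset of 1, and -0.59 and -0.81 with an offset of 64. The brightest probe set, 1436818_a_at, read 239.8 to 297 and 270.4 to 304 in the hippocampus and 417 to 497 and 413 to 538 in the amygdala, differing by 0.17 and -0.02. Probe set 1443008_at was higher by 0.21 and 0.42, 1421230_a_at by 0.11 and 0.12, and 1458136_at by 0.29 and 0.08. The remaining probe sets gave -0.26 and -0.08 (1435520_at), 0.11 and -0.15 (1441185_at), and 0.16 and 0.00 (1421231_at). The probe sets of this gene therefore did not share a direction. For none of the 9 genes were probe sets compared with sequence differences between A/J and C57BL/6J. Any effect of such differences on the intensities was not tested.

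Across the 31 probe sets, 23 differed in the same direction in both regions, 13 higher and 10 lower in high freezing mice, where 58.8% of all 27022 probe sets did so. A difference of at least 0.25, before rounding, in both regions and in the same direction was found for 7 of 31, against 2.49% of all probe sets. These were the 2 probe sets of Ppm1h and 1 each of Usp15, Cuedc1, Msi2, Utp18 and Mbtd1. The groups did not overlap for 1 of 31 in the hippocampus and 1 of 31 in the amygdala, in both cases with the high freezing arrays above. Among all probe sets 0.818% had no overlap in the hippocampus (0.451% with high freezing above and 0.366% with it below) and 0.551% in the amygdala (0.326% and 0.226%). Since the genes were chosen by this contrast, nothing is read from these counts. The median absolute log2 difference was 0.19 in the hippocampus and 0.15 in the amygdala for the members, and 0.10 and 0.09 for all probe sets.

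**Figure D2:**
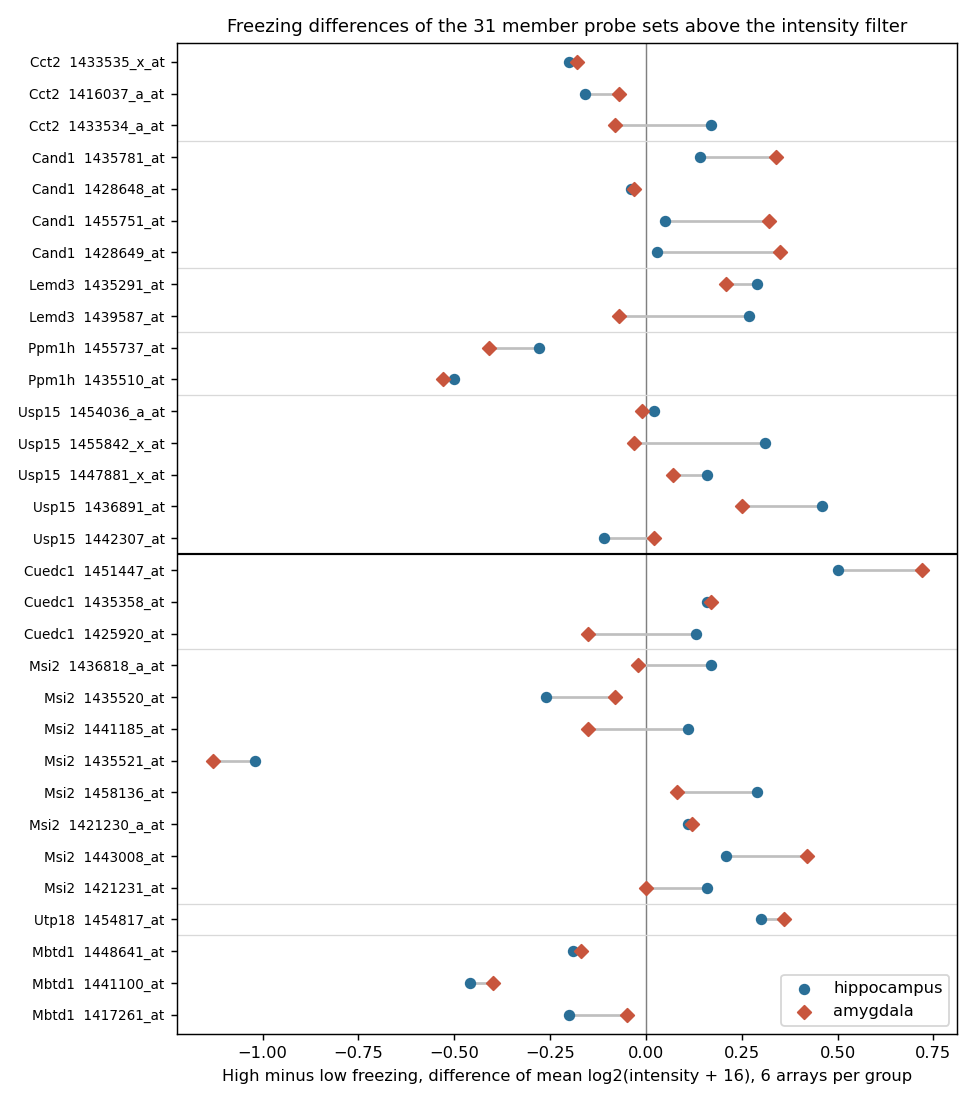
High minus low freezing (x axis, difference of mean log2(intensity + 16), 6 arrays per group) for the 31 probe sets of the 9 genes, 1 per line, with circles for the hippocampus and diamonds for the amygdala joined by a line; the black rule divides chromosome 10 above from chromosome 11 below. Msi2 1435521_at lies farthest from 0, at -1.02 and -1.13, and other probe sets of Msi2 lie on both sides of 0.

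Measured genes between the members of each run are described next. They are what remained once members were chosen for their differences, so nothing about the runs is read from their values. From Cct2 to Usp15, RefSeq lists 40 protein-coding genes, members included, and 24 other genes with 46 probe sets were measured there. High and low freezing arrays did not overlap for 1 of these 46 in the hippocampus, Tmbim4, a gene of the TMBIM membrane protein family (-0.14), and for 0 in the amygdala. A difference of at least 0.25 in both regions, before rounding, was found for 2 of 46, beside 2.49% of all probe sets. They were Lyz1, a lysozyme, at 1436996_x_at (-0.29 and -0.58), and Mon2, an endosome to Golgi transport protein, at 1428818_at (0.26 and 0.45). Lyz1 and its neighbour Lyz2 (-0.13 and -0.34) are near-identical copies, so the signal of each is uncertain. Rassf3 (0.25 after rounding up, and 0.34) and Mdm1 (0.32 and 0.22) completed the 5 measured neighbours with the largest differences. These probe sets of Mon2 and Mdm1 were dim, with means of 30.5 and 33.4 beside a lowest mean kept of 23.35. Brighter probe sets of Mon2 differed by 0.07 and 0.25 (1428817_at) and by -0.09 and 0.06 (1440027_at). The other probe set of Rassf3 differed by 0.04 and -0.09, that of Lyz1 by -0.01 and -0.47, and that of Mdm1 by 0.25 and 0.19. The median absolute difference of the 46 was 0.08 in the hippocampus and 0.12 in the amygdala, close to the 0.10 and 0.09 of all probe sets.

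From Cuedc1 to Mbtd1, RefSeq lists 24 protein-coding genes, and 13 other genes with 26 probe sets were measured. For Dgke, a diacylglycerol kinase, 1423000_a_at had no overlap in the hippocampus and differed by -0.57 and -0.37. That probe set was dim, with a mean of 32.0 over all arrays. The brightest probe set of Dgke, 1438078_at, differed by 0.20 and 0.11, in the other direction. A further one, 1436547_at, differed by -0.16 and -0.20, in the same direction as 1423000_a_at. The next largest were Scpep1 (0.45 and 0.19), Car10 (0.35 and 0.12), Mrps23 (0.29 and 0.16) and Stxbp4 (0.18 and 0.22), each at the probe set with the largest difference. Those of Car10 and Mrps23 were dim, with means of 24.4 and 44.4 over all arrays. Brighter probe sets of Scpep1, Car10 and Mrps23 differed by 0.17 and -0.16, by -0.20 and 0.10, and by -0.02 and 0.09. The median absolute difference of the 26 was 0.12 in each region. Outside the runs, 20 measured genes flanking each run were examined. Those of chromosome 10 (34 probe sets) held 0 with no overlap in either region. Those of chromosome 11 (41 probe sets) held Nme2, a nucleoside diphosphate kinase, with no overlap in the amygdala (-0.14 and -0.13), and Tob1, an antiproliferative factor, with 0.27 and 0.29. Among neighbours and flanking genes, 0 probe sets had no overlap in both regions, a share that was not counted over all probe sets. Of all probe sets 0.818% had no overlap in the hippocampus and 0.551% in the amygdala. At such shares few are expected in sets of this size, so nothing is read from these counts for either run or its flanks.

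**Figure D3:**
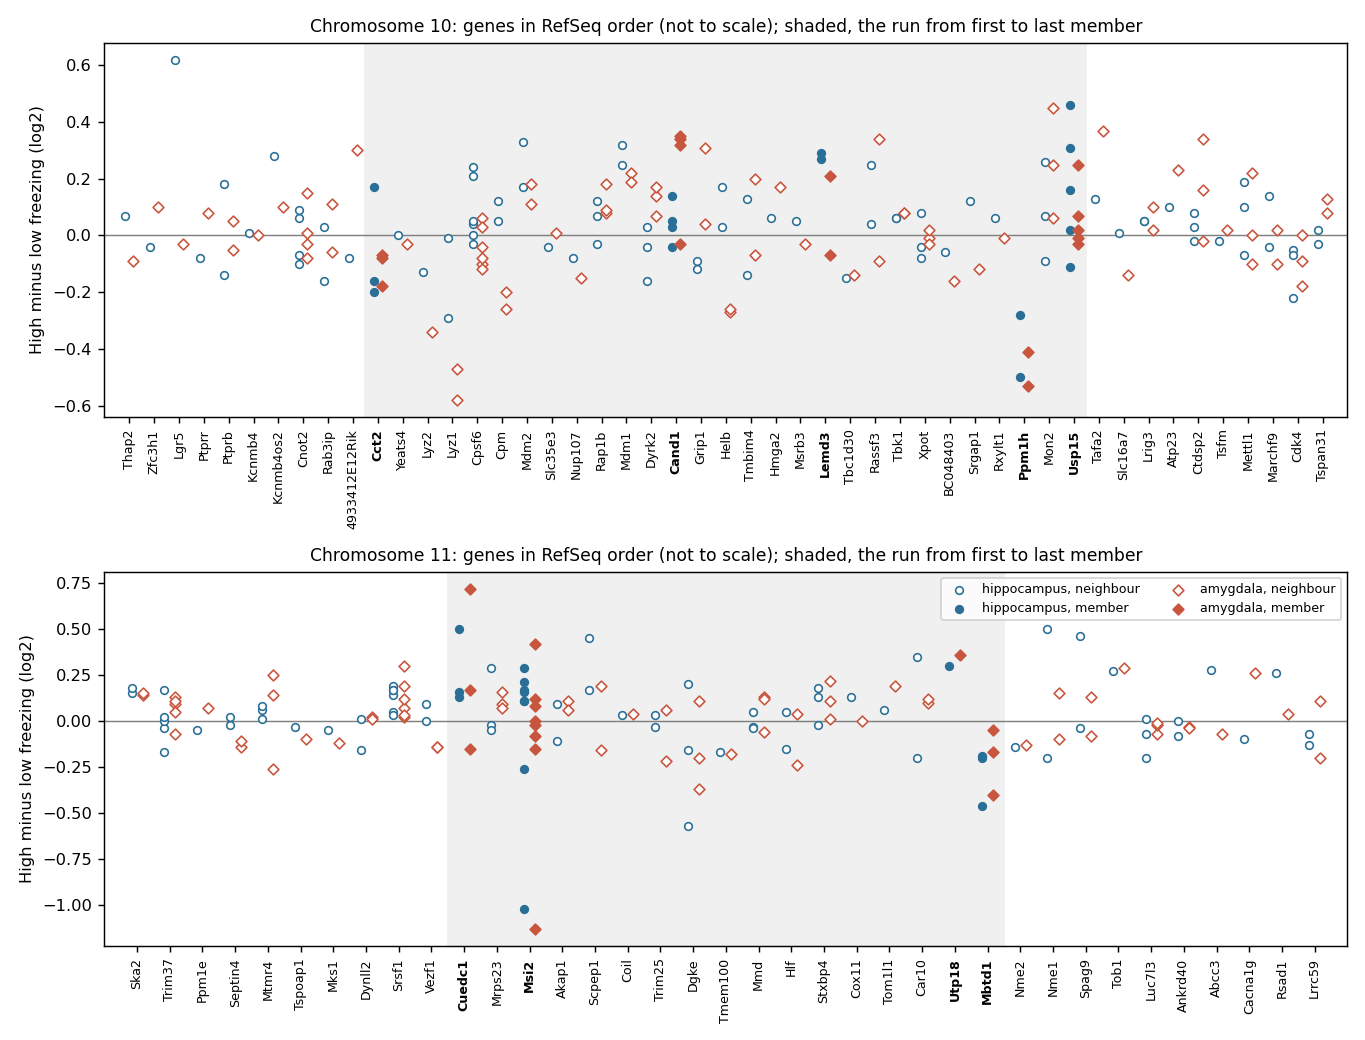
High minus low freezing (y axis, log2(intensity + 16) scale) for every measured probe set of the genes along the 2 runs (shaded) and their flanks, in RefSeq order and not to scale on the x axis; circles are hippocampus, diamonds amygdala, filled symbols members and open symbols neighbours. Members with positive and with negative differences are mixed along each run. Single probe sets of neighbours reach values of like size, such as Lyz1 1436996_x_at (-0.29 and -0.58) and the dim Dgke 1423000_a_at (-0.57 and -0.37).

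Within groups, members of 1 run had no higher median correlation than members of different runs. After the 4 group means were removed, the 32 pairs of leading probe sets from 1 run had a median Pearson r of 0.01 over 12 hippocampus arrays and -0.11 over 12 amygdala arrays. The 42 pairs from different runs had medians of 0.05 and -0.01. These correlations share the arrays and are a description. The genes whose deviations over the 24 arrays were most like a member's follow. For Cct2 they were Eif2s2 (r = 0.81), Slc1a4 (0.80) and Rplp0 (0.78). For Cand1 they were Gorasp2 (0.79), Yipf7 (0.73) and Srsf9 (0.72), and for Lemd3 Twf2 (0.79), Ciao2a (0.73) and Snhg18 (0.73). The brightest probe set of Ppm1h was most like Ccdc141 (0.80), Tor1aip1 (0.76) and Nup153 (0.73), and that of Usp15 most like Fam98b (0.72), Chmp5 (0.71) and Gpr75 (0.70). For Cuedc1 the closest were Mtf1 (0.71), Hadh (0.71) and E2f3 (0.69), and for Utp18 Zscan26 (0.74), Cnot9 (0.73) and Osmr (0.72). Msi2 at its brightest probe set was most like Ppp3cc (0.72), Elavl4 (0.71) and Pacrgl (0.71), and Mbtd1 most like Sdhaf1 (0.83), Fbxo31 (0.77) and Chil1 (0.76). The most different probe sets of a gene had other nearest genes: Atp6ap2 (0.79) for Msi2, Mettl15 (0.75) for Usp15, Ttc9c (0.70) for Ppm1h and Prpf4 (0.70) for Mbtd1. For each of the 13 leading probe sets, 0 of the 20 most alike genes lay inside the member's own run and 0 to 3 lay on its chromosome. The runs hold 0.233% and 0.136% of the 12471 genes compared, and chromosomes 10 and 11 hold 4.96% and 8.00%, so nothing is read from these counts.

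The contrast between brain regions was not used to choose the genes and was tested. Amygdala and hippocampus differed for 18 of 31 probe sets (limma on all 24 arrays, adjusted p under 0.05 over 27022 probe sets), 9 higher and 9 lower in the amygdala. Of all probe sets 51.2% differed, 27.1% higher and 24.1% lower, so the share of members called was near the background. Direction split by chromosome among the members: of the 16 probe sets on chromosome 10, 0 were higher and 8 lower, with a median log2 difference of -0.19. Of the 15 on chromosome 11, 9 were higher and 1 lower, with a median of 0.34, beside 0.02 over all probe sets. Most of those 9 belonged to Msi2, and probe sets of 1 gene are not separate cases. Neighbours went both ways in each run at their brightest probe sets. On chromosome 10 Cpm was higher (1.29) and Dyrk2 lower (-1.25), and on chromosome 11 Trim25 was higher (0.86) and Mmd lower (-1.40). At each gene's brightest probe set, 5 of 9 differed, against 56.3% of 12471 genes. With the probe sets of each gene averaged, 9 of 9 differed, 3 higher and 6 lower in the amygdala, against 57.2% of all genes. With arrays centred on their medians, the split was 9 higher and 13 lower for the members and 5580 higher and 8605 lower for all probe sets, which was 7310 and 6522 without centring. In these bulk samples, fewer cells of a type and less RNA per cell cannot be told apart.

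Msi2 had the clearest regional difference. At 1436818_a_at mean intensity was 272.6 ± 23.8 over the hippocampus arrays and 456.6 ± 33.9 over the amygdala arrays (SD, n = 12 each), and the 12 amygdala arrays, from 413 to 538, lay above the 12 hippocampus arrays, from 239.8 to 304. The log2 difference was 0.71 ± 0.05 (SE; limma adjusted p = 7.18e-14), or 1.64-fold. In all, 6 of 8 probe sets of Msi2 were called higher in the amygdala, and 1458136_at and 1421231_at were not (0.29, adjusted p = 0.146, and 0.18, adjusted p = 0.321). At 1435521_at the regional difference was 1.03 ± 0.17 (adjusted p = 8.36e-06).

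Cuedc1 was higher in the amygdala at 1451447_at, with means of 174.7 ± 53.9 and 127.7 ± 33.1 (SD, n = 12 each) and a log2 difference of 0.39 ± 0.09 (SE; adjusted p = 7.75e-04). It was also higher at 1435358_at (0.33, adjusted p = 5.61e-04) but not past the threshold at 1425920_at (0.01, adjusted p = 0.942). Mbtd1 was higher at 1441100_at (0.41 ± 0.09, adjusted p = 4.47e-04), while its brightest probe set differed by 0.04 (adjusted p = 0.552). Utp18, its head-to-head neighbour, was lower in the amygdala by a small margin (-0.19 ± 0.08, adjusted p = 0.0471). That call was lost with no filter on dim probe sets, with no intensity trend, and when any 1 of 15 arrays was left out: hippocampus replicates 1, 2, 4, 5, 7, 8, 10 and 11, and amygdala replicates 1, 3, 4, 7, 8, 11 and 12.

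On chromosome 10, Lemd3 was lower in the amygdala at 1435291_at, with means of 371.1 ± 41.6 and 468.3 ± 66.9 (SD, n = 12 each) and a log2 difference of -0.32 ± 0.05 (SE; adjusted p = 1.29e-05). Its other probe set tested, 1439587_at, was not past the threshold (-0.07, limma adjusted p = 0.551). Ppm1h was lower at 1455737_at (-0.37 ± 0.08, adjusted p = 1.64e-04), and 1435510_at was not past the threshold (-0.32, adjusted p = 0.138). Of 5 probe sets of Usp15, 3 were lower, among them 1447881_x_at (-0.37, adjusted p = 5.64e-05) and 1436891_at (-0.31, adjusted p = 0.00114). The brightest, 1454036_a_at (-0.18, adjusted p = 0.0580), and 1442307_at (0.07, adjusted p = 0.475) were not called. For Cand1, 1428649_at was lower (-0.31 ± 0.08, adjusted p = 0.00140), and 1435781_at differed by -0.05 (adjusted p = 0.511). For Cct2, 1433534_a_at (-0.14, adjusted p = 0.0171) and 1416037_a_at (-0.10, adjusted p = 0.0323) were lower, and 1433535_x_at was not past the threshold (-0.09, adjusted p = 0.0845). The call of 1416037_a_at was lost under quantile normalization, with no filter, with no intensity trend, and without any 1 of 9 arrays: hippocampus replicates 3, 5, 7, 8 and 10, and amygdala replicates 5, 6, 11 and 12.

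Cell type markers moved with this contrast. The 10 measured oligodendrocyte markers were all higher in the amygdala, with a summed intensity of 14850.5 to 19989 in hippocampus arrays and 38866 to 53308 in amygdala arrays. The 9 markers of choroid plexus and ependyma were all higher too, at 1974 to 13618 and 14806 to 21705. Of 9 measured microglia markers, 7 were higher and 0 lower, of 8 astrocyte markers 4 were higher and 2 lower, of 9 thalamus and hypothalamus markers 5 were higher and 2 lower, and of 5 endothelium and blood markers 1 was higher. The part of these cell types in the regional differences of the 9 genes was not tested.

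**Figure D4:**
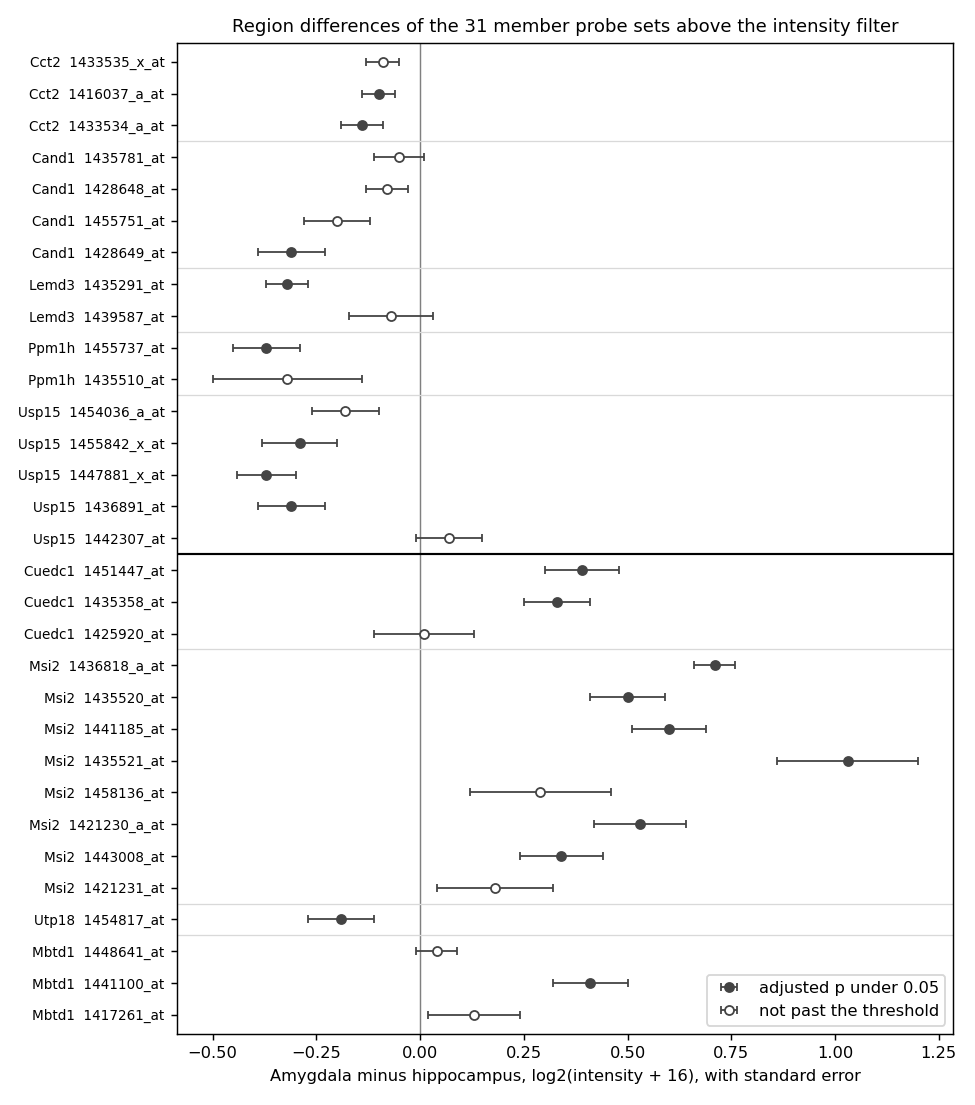
Amygdala minus hippocampus (x axis, log2(intensity + 16)) for the 31 probe sets of the 9 genes, 1 per line, with standard errors from limma; filled points passed an adjusted p of 0.05 and open points did not. The filled points of the chromosome 10 genes, above the black rule, lie below 0, and those of the chromosome 11 genes lie above 0 except Utp18.

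Genes listed beside the 9 by shared complex, gene family, pathway or domain were tested for freezing differences, since they were not listed for that contrast. The lists were nevertheless drawn up with earlier results of these data known. Yeats4, on the NuA4/TIP60 list, also lies inside the chromosome 10 run, and Ppm1e flanks the chromosome 11 run. Listed genes are called partners below, and no working link to a member was tested. Of 165 genes on 9 lists, 160 were measured, and 0 passed an adjusted p of 0.05 in the hippocampus or in the amygdala (limma). At an unadjusted p under 0.05 there were 26 and 19, and the lowest adjusted p was 0.125 and 0.117. Of all 12471 genes at their brightest probe set, 4 and 7 passed adjustment, and 1511 and 1254 had an unadjusted p under 0.05. Over all probe sets 0.0518% and 0.0555% passed adjustment, and 11.8% and 10.7% had an unadjusted p under 0.05. Of the 160 genes, 79 were above 0 in the hippocampus and 80 in the amygdala, and the medians of the 9 lists lay between -0.05 and 0.05 in the hippocampus and between -0.04 and 0.04 in the amygdala. For the partners of Cct2, 14 measured chaperonin subunits and cofactors, the median difference was -0.05 and -0.03, with 4 and 6 above 0. For the 23 measured genes of the small subunit processome around Utp18 it was 0.04 and -0.02, and for the 20 of the NuA4/TIP60 complex and MBT proteins around Mbtd1 it was 0.00 and 0.04.

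Between regions, 42 of the 160 partners were higher and 44 lower in the amygdala. Of all 12471 genes at their brightest probe set, 31.7% were higher and 24.6% lower, the shares against which this count and those of the lists stand. The processome list had 12 lower and 3 higher of 23, with a median of -0.19. Utp4 (-0.71, adjusted p = 9.04e-13) and Utp15 (-0.32, adjusted p = 8.87e-05) were lower, and Wdr46 (0.38, adjusted p = 2.59e-04) was higher. The median over all genes at their brightest probe sets was 0.04.

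Among partners of Lemd3, 5 of 13 genes of LEM domain proteins and the nuclear lamina were higher and 2 lower. Sun2, which links the nuclear envelope to the cytoskeleton, was 2.13-fold higher (1.09, adjusted p = 5.76e-12). Lbr, the lamin B receptor, and Lemd2 were higher by 0.54 and 0.38 (adjusted p = 9.28e-08 and 0.00108), while Lemd3 was lower at its brightest probe set. Among the PPM phosphatases related to Ppm1h, 7 of 15 were higher and 3 lower. Ppm1e was 2.42-fold lower (-1.28, adjusted p = 1.40e-19), Pdp1 was 2.43-fold higher (1.28, adjusted p = 3.37e-11), and Phlpp1 was higher by 0.70 (adjusted p = 3.59e-14).

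For Usp15, 5 of 15 paralogues and genes of TGF-beta SMAD signalling were higher and 4 lower. The receptor Tgfbr2 was higher by 0.81 (adjusted p = 3.99e-10) and the inhibitor Smad7 by 0.73 (adjusted p = 7.01e-08), and the receptor Acvr1 was lower (-0.79, adjusted p = 1.18e-14). For Cand1, 4 of 28 genes of cullin-RING ligases, NEDD8 and the COP9 signalosome were higher and 7 lower. The RING subunit Rnf7 was 1.84-fold higher (0.88, adjusted p = 9.63e-16), Cul7 was higher by 0.44 (adjusted p = 1.90e-06) and Cul5 lower (-0.29, adjusted p = 0.0328). Of 14 chaperonin genes, 3 were higher and 2 lower: Pdcl3, a cofactor, was higher by 0.39 (adjusted p = 2.72e-06), and the subunits Cct5 and Cct6a were lower (-0.21 and -0.18, adjusted p = 5.66e-06 and 8.34e-05).

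Of 13 Musashi and related RNA-binding genes, 3 were higher and 4 lower. Numb, whose messenger RNA is a known Musashi target, was higher by 0.30 (adjusted p = 1.62e-05), Dazap1 was higher by 0.24 (adjusted p = 3.93e-04) and Hnrnpa1 lower (-0.22, adjusted p = 2.82e-04). Of 20 NuA4/TIP60 and MBT genes, 4 were higher and 6 lower, with L3mbtl2 (-0.42, adjusted p = 2.73e-05) and Epc2 (-0.36, adjusted p = 1.02e-08) lower and Sfmbt2 (0.33, adjusted p = 0.0184) higher. Of 19 ESCRT and ubiquitin-binding endosomal genes listed with Cuedc1, 8 were higher and 4 lower: Tom1 was higher by 0.45 (adjusted p = 2.70e-10), and Cuedc2 (-0.34, adjusted p = 2.12e-07) and Vps4a (-0.26, adjusted p = 4.17e-07) were lower.

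The labels number the arrays 1 to 12 in both regions, so it was asked whether a high hippocampus array of a gene went with a high amygdala array of the same number. Deviations from the group mean were compared over 12 numbers at each gene's brightest probe set, with 100000 permutations and Benjamini-Hochberg adjustment over the 9 genes. For 0 of 9 genes did the relation pass an adjusted p of 0.05. Pearson's r ranged from -0.69 for Cuedc1 to 0.45 for Cct2. For Cuedc1 the two-sided permutation p was 0.00975, or 0.0877 adjusted, and Spearman's rho was -0.68 (permutation p = 0.0185, adjusted p = 0.167). Without the 2 numbers farthest from the median r was -0.65, and without number 6 it was -0.86 (adjusted permutation p = 0.0173). With the mean of the gene's probe sets in place of the brightest, r was -0.04 (adjusted permutation p = 0.937). An r of at least 0.5 was reached by 0 of 9 members and by 7.09% of the 12471 genes.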

How the data were processed

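The deposited values were linear intensity values, 1 per probe set and array, from Affymetrix arrays; no source used here names the software behind them. The trimmed mean of every array, leaving out 2% at each end, was 150.0, so no further normalization was applied. The members and gene lists were chosen with earlier results of these data known. Of 45101 probe sets, 34958 carried 1 symbol in the platform annotation, 932 several and 9211 none. The 64 control probe sets and the dimmest 40% by mean log2 value were left out, which kept 27022. Values were analysed as log2(intensity + 16), a scale that understates changes of dim probe sets. Limma 3.58.1 in R 4.3.3 was fitted with 1 mean per group and an intensity trend, two-sided, with Benjamini-Hochberg adjustment over all probe sets kept, after a test on simulated data. P-values measure the spread between arrays, which may be technical. The number of arrays, 6 per group, limits the precision.

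Genes were compared at their brightest probe set. Named were all members, the up to 5 neighbours per run with the largest difference and those with no overlap, up to 3 partners per list with the largest called regional difference, and the 3 genes most like each member. Tmbim4, Nme2, Tob1, Cpm, Dyrk2, Trim25, Mmd and Gfap were named after their values were seen, as were further probe sets of named neighbours. Alternatives were other offsets, normalizations, filters, variance priors, array weights, a replicate block, averaging the probe sets of a gene, and leaving out each array. Gene order and promoter sequences came from RefSeq (GRCm38.p6); no build is named for the deposited values, so gene coordinates other than those of the printed interval are left out. Python 3.11.15 and scipy 1.17.1 were used for permutations.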

Additional observations from a re-analysis of the deposited data

Results flagged for a closer look

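In 5 of 52 groups of 6 arrays, 1 array stood far from the rest: its gap to the nearest array, divided by the range of the group, exceeded the 95% critical value of Dixon's test, as chance alone gives for about 1 in 20 groups. For Lemd3 (1435291_at), hippocampus low freezing replicate 3 was lowest at 353.8 (gap over range 0.66). For Ppm1h (1435510_at), hippocampus low freezing replicate 1 was lowest at 21.6 (0.63) and hippocampus high freezing replicate 12 was lowest at 2.39 (0.63). For Msi2 (1436818_a_at), hippocampus low freezing replicate 2 was highest at 297.0 (0.69) and amygdala high freezing replicate 12 was highest at 538.0 (0.67).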

How the results depend on the processing

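The regional count of members, 18 in the fit described, lay between 16 and 22 under other settings and between 16 and 21 when 1 array was left out; with the replicate block it was 18, 9 higher and 9 lower. Of the 18 calls, those of Cct2 1416037_a_at and Utp18 were the only ones to miss the threshold in an alternative that tested them (the filter leaving out 60% did not test the dimmest members), and none of the 18 changed sign. The count of genes called was 9 instead of 5 of 9 when the probe sets of a gene were averaged, where 57.2% of all genes were called. The 7 probe sets with freezing differences of at least 0.25 in both regions became 4 with an offset of 64. The count of partner genes called for freezing was 0 under every alternative run. The count of genes with a relation between same-numbered arrays past the threshold was 0 to 1 when each number was left out; the 1, without number 6, was the inverse relation of Cuedc1. Same-numbered arrays of the 2 regions had correlations of -0.079 to 0.086 over all probe sets, and 4 of 12 correlated best with their own number, so the numbers were not taken to pair arrays. The small freezing differences of Usp15 1454036_a_at and Msi2 1436818_a_at changed sign under some settings. Centring arrays moved the median regional difference of all probe sets by -0.08.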
